A study of Mus musculus with 6 samples.

Results

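The 9 genes described here make, carry, sense or break down retinoic acid (RA) and were followed in granulosa cells (GCs), the supporting cells of the ovarian follicle. They were chosen by gene name, *Aldh1a1*, *Aldh1a2*, *Rdh10*, *Rdh11*, *Crabp2*, *Rara*, *Rarb*, *Rarg* and *Cyp26b1*, and all 9 had a row among the 16300 genes of the RNA-seq table. Primary GCs of wild type C57BL/6J mice aged 8-9 weeks were cultured and then given media alone (control) or 25 nM dihydrotestosterone (DHT), an androgen that is not converted to estrogen, for 24 h. There were 3 control and 3 DHT libraries, and each library pooled the GCs of 5 mice, so differences between single animals could not be seen. The groups followed the label that names control or DHT, because the treatment protocol given with each sample mentions DHT for controls too. The labels also describe the extracted material as whole ovary, whereas their cell type entry reads granulosa cells.

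RA is made from retinol (vitamin A) in successive oxidations. Retinol dehydrogenases such as RDH10 and RDH11 act between retinol and retinal, and retinaldehyde dehydrogenases of the ALDH1A family oxidise retinal to RA. CRABP2 carries RA to the nuclear receptors RARα, RARβ and RARγ, which bind DNA together with an RXR partner, and CYP26 enzymes such as CYP26B1 oxidise RA for removal. In the fetal ovary RA has been linked to the entry of germ cells into meiosis, and in the adult ovary follicles are known to make RA.

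The values are normalized counts, that is, reads on a gene divided by the size factor of the library. The reads recovered from them summed to between 36111177 and 41928585 per library. The labelled cell type was checked with 10 GC markers, of which 9 had a row, all but *Cyp19a1*. None of the 9 was at 0 in any library, as was so for the theca, stroma, endothelium and leukocyte markers below. *Foxl2*, a defining transcription factor of GCs, had between 2194 and 2588 normalized counts. *Fshr* had 135 to 168 and *Amh* 63.3 to 196. The summed GC markers were 97671 to 105375 in control and 77429 to 82043 in DHT libraries, with *Inha* alone at 50626 to 60095 and 32272 to 38277. Among them *Inha* and *Kitl* fell with DHT, by 0.61 and 0.85 on the log2 scale (limma adjusted p = 0.00162 and 0.00119), *Foxl2* fell by 0.15 (limma adjusted p = 0.0490, up to 0.145 with a library left out) and *Hsd17b1* rose by 0.48 (limma adjusted p = 0.00442). Markers of theca, stroma, endothelium and leukocytes were summed in the same way, and none of these was at 0 in any library. The 3 theca markers with a row were 2457 to 2805 in control and 2210 to 2341 in DHT, a sum made up almost wholly of *Ptch1* (2411 to 2773 and 2172 to 2294), and the 4 of stromal fibroblasts 1534 to 1716 and 1219 to 1601. The 3 endothelial markers were 101 to 147 in control and 112 to 169 in DHT, and the 3 of leukocytes 228 to 255 and 182 to 243. Of these 13 markers 1 passed, *Csf1r*, a receptor of macrophages, which fell by 0.64 on the log2 scale (limma adjusted p = 0.0270, up to 0.101 with a library left out). Of its 5774 bp of exon, 873 bp overlap exons of *Hmgxb3* on the other strand, where reads cannot be told apart without strand. The other leukocyte markers did not pass, and *Ptprc*, the pan-leukocyte marker, was higher in every DHT library (5.94 to 11.1 in control and 12.0 to 15.7 in DHT). The part of these cell types in the results on the RA genes was not tested. In bulk RNA, fewer cells of a type and less RNA per cell cannot be told apart.

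Across all genes, 1823 of 16292 tested genes (11.2%) passed an adjusted p of 0.05 with limma, 1063 of them (6.52%) higher with DHT and 760 (4.66%) lower. Of the 9 RA genes, 1 passed, *Rdh11*, which rose, and this share is near that background. The 3 libraries of each group did not overlap for 30.6% of the tested genes, and for 3 of the 9 RA genes: *Rdh11*, higher with DHT in every library (15.9% of all tested genes), and *Aldh1a1* and *Rarg*, lower in every library (14.7%). The median log2 fold change of the 9 genes was -0.14, beside -0.01 over all genes tested, with 7 below 0 and 2 above. None of the 9 passed both the adjusted p and an absolute log2 fold change above 1, which 1.31% of all tested genes did. The rows had been filtered on low counts before deposition, since the smallest mean over the libraries was 10.2 reads, and all 9 genes passed the further minimum of a mean of 10 normalized counts.

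**Figure D1:**
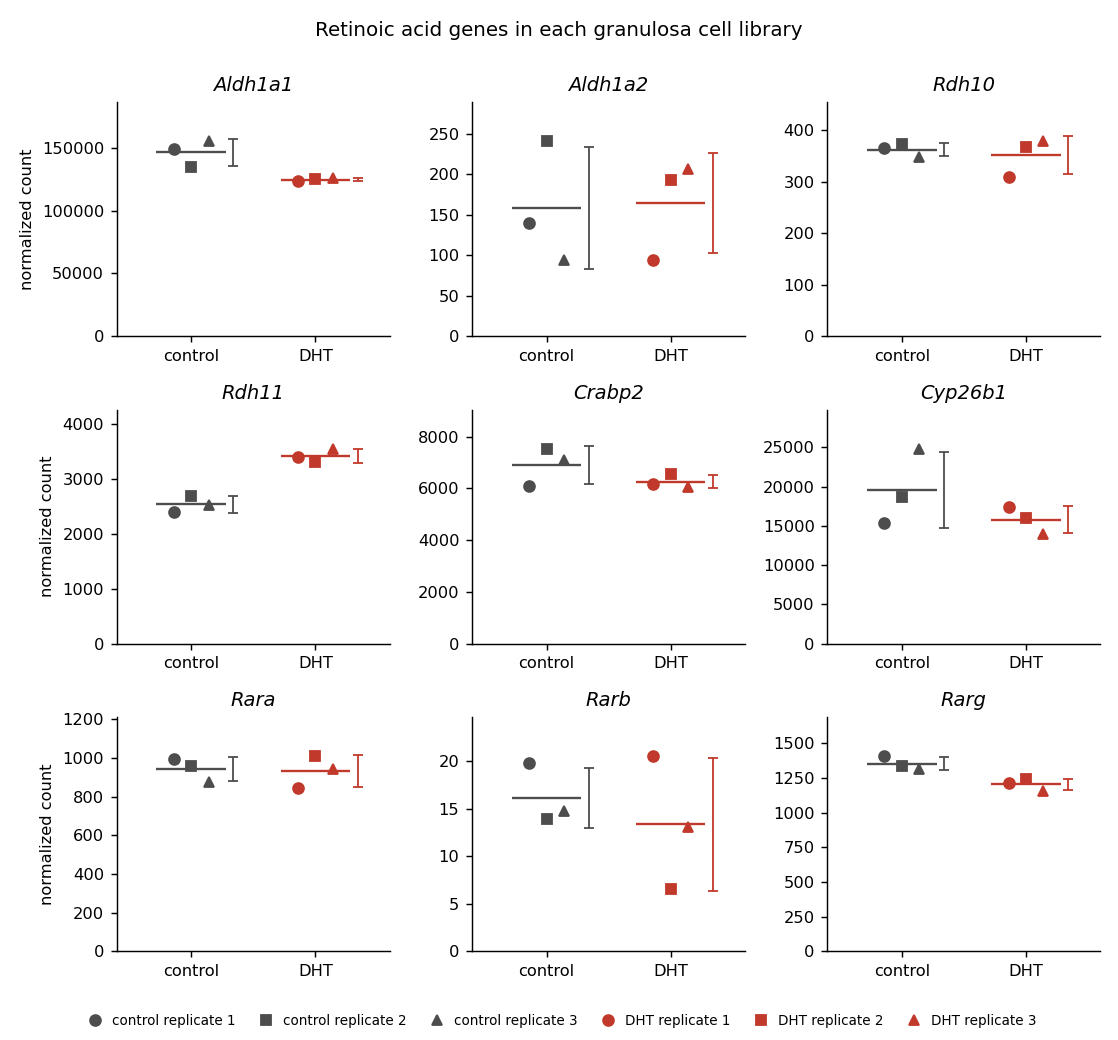
Normalized count (vertical axes, linear and starting at 0) of each RA gene in the 3 control libraries (grey) and the 3 DHT libraries (red). Marker shapes give the replicate number, horizontal lines the mean of 3 libraries and the bars beside them 1 SD; the groups are apart for *Rdh11*, *Aldh1a1* and *Rarg* and overlap for the other 6 genes.

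*Rdh11* encodes a short-chain dehydrogenase of the endoplasmic reticulum that acts on retinol and retinal, and it was first described in the prostate as an androgen-regulated gene. Its normalized counts were 2397, 2701 and 2522 in control replicates 1, 2 and 3. In the DHT libraries they were 3397, 3314 and 3558. All 3 DHT values lay above all 3 control values, and the gap between the groups was wider than the spread within either. The mean rose from 2540 ± 152 to 3423 ± 124 (SD, n = 3 each), 34.8% higher with DHT. The log2 fold change was 0.43 with an SE of 0.051 and a 95% interval of 0.32 to 0.55 (limma adjusted p = 0.00102). The exact two-sided permutation test gave p = 0.1, the smallest value that 3 against 3 libraries allow. *Rdh11* passed under all 15 alternatives, with its adjusted p at most 0.0270.

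The gene lies on chromosome 12 of GRCm38 (79174337 to 79192293, minus strand). RefSeq gives 2 windows of 250 bases before and 50 after a start site for it, and the stretch before the start at 79190961 is shown because it belongs to the RA gene that rose and holds a repeated motif. It lies in no annotated exon, at chr12:79190962-79191211 (GRCm38.p6, minus strand, written 5′ to 3′), with both copies of the E-box CACGTG in capitals.

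*Rdh11*: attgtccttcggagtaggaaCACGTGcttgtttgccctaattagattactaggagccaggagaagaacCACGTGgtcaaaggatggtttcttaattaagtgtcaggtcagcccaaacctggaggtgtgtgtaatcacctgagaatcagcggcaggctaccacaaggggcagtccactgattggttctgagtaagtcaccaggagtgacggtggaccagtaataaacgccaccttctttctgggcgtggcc

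The first bases of the E-boxes are at -230 and -182 from the start. An E-box of these letters, which read the same on both strands, occurred in 7.15% of 32851 RefSeq windows of this length and in 3 of the 13 windows of 7 RA genes, the other 2 being overlapping windows of *Rara*. The letters of the full androgen response element (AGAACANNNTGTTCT), of its half-site (AGAACA) and of a sterol regulatory element (TCACNCCAC) were found in none of these 13 windows on either strand. They occurred in 0.00913%, 19.0% and 1.24% of all windows. The full element contains the half-site, and no match says only that these letters are not in these windows. The motifs were chosen after the sequences had been seen, and the matches are descriptions.

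The 3 tested genes with a mean of at least 50 whose profile over the 6 libraries was most like that of *Rdh11* were *Dlk2*, *Cdc42ep1* and *Pus10*. Their root-mean-square distances from it, in centred log2 values, were 0.0165, 0.0254 and 0.0326 among 12704 genes compared. *Dlk2*, with mean counts of 70.3 in control and 95.6 in DHT, did not pass (limma adjusted p = 0.0752). *Cdc42ep1* and *Pus10* passed (limma adjusted p = 0.00168 and 0.000445).

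*Rdh10* encodes the membrane-bound enzyme that makes most of the retinal for RA in the embryo. It had 365, 374 and 348 normalized counts in the control libraries and 310, 368 and 380 in the DHT libraries. DHT replicate 1 was the lowest library and DHT replicate 3 the highest, so the groups overlapped. It changed by -0.04 on the log2 scale with an SE of 0.093 (limma adjusted p = 0.817), and its 95% interval ran from -0.25 to 0.17. Per kb of exon, *Rdh11* stood 7.91 to 8.72 times above *Rdh10* in the control libraries and 10.9 to 13.2 times above it in the DHT libraries.

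The enzymes that oxidise retinal were represented by *Aldh1a1* at a very high level. *Aldh1a1* had 149076, 134921 and 155949 normalized counts in control replicates 1, 2 and 3. In the DHT libraries it had 123549, 125391 and 126048. Every DHT library lay below every control library, and the DHT libraries were close together while control replicate 2 was nearest to them. By mean count the gene ranked 9 among the 16300 genes, and its share of all reads was 0.351% to 0.401% in control and 0.317% to 0.320% in DHT libraries. The means were 146649 ± 10722 in control and 124996 ± 1295 in DHT (SD, n = 3 each). The log2 fold change was -0.23 with an SE of 0.063 and a 95% interval of -0.37 to -0.08, and it narrowly missed the threshold (limma adjusted p = 0.0514). Its adjusted p ran from 0.000578 with DESeq2 to 0.170 without DHT replicate 2, and it passed under 5 of the 15 alternatives: DESeq2 (which called 11.8% of all genes), edgeR (0.0252, 11.1% of all genes), TMM scaling (0.0494), a pseudocount of 0.5 (0.0499) and without control replicate 2 (0.0168). The exact permutation p was 0.1. The gene is on chromosome 19 (20492715 to 20643465, plus strand) and has a near-identical mouse paralog, *Aldh1a7*, to which some of its reads could map equally well. *Aldh1a7* had 1389 to 1593 normalized counts in control and 1366 to 1457 in DHT, which overlap (log2 fold change -0.04, limma adjusted p = 0.759).

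*Aldh1a2*, the ALDH1A enzyme that makes most RA in the early embryo, varied between libraries of 1 group more than between the groups. It had 140, 242 and 93.6 normalized counts in the control libraries and 93.9, 193 and 207 in the DHT libraries. Control replicate 3 and DHT replicate 1 were lowest, and control replicate 2 was highest. The log2 fold change of 0.08 had an SE of 0.37 (limma adjusted p = 0.923), and its 95% interval of -0.76 to 0.92 left changes of either direction within reach. The value fell below 0 without control replicate 3 (-0.24), without DHT replicate 2 (-0.08) or without DHT replicate 3 (-0.13).

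The ovarian surface epithelium (OSE), the cell layer that covers the ovary, was among the other cell types whose markers were examined, and all 6 of its markers had a row. Their summed normalized counts were 1167 to 1610 in control and 923 to 1785 in DHT libraries, and none was at 0. *Krt7*, an epithelial keratin, had 145, 252 and 148 in control and 80.2, 255 and 268 in DHT. *Upk3b*, a uroplakin of mesothelium, had 145, 269 and 161 in control and 97.9, 218 and 233 in DHT. The libraries with the higher *Aldh1a2* counts, control replicate 2 and DHT replicates 2 and 3, were also the 3 with the higher *Krt7*, *Upk3b*, *Msln* and *Upk1b* counts. By contrast, *Krt19* was second highest in DHT replicate 3 but second lowest in DHT replicate 2, and *Wt1*, which GCs also express, was highest in control replicate 1. These profiles share the 6 libraries and their scaling, and their part in the *Aldh1a2* values was not tested.

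**Figure D2:**
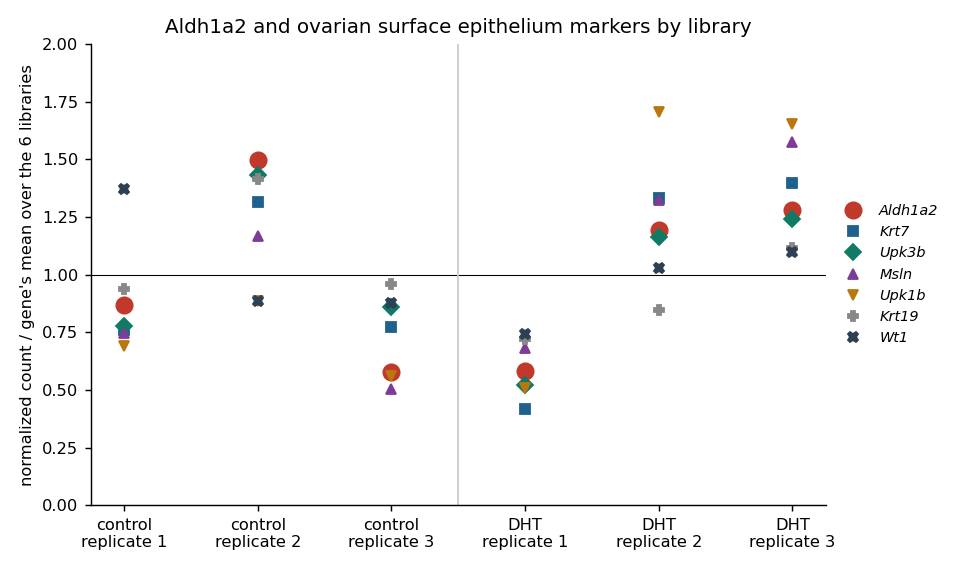
Normalized count of *Aldh1a2* (large red circles) and of 6 OSE markers, each divided by the mean of that gene over the 6 libraries (vertical axis, 1 marks the mean), in each library (horizontal axis). *Aldh1a2* stood at 1.495 in control replicate 2, where *Krt7* stood at 1.32, and at 0.58 in DHT replicate 1, where *Krt7* stood at 0.42.

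Because counts grow with gene length, levels of different genes were compared as normalized counts per kb of exon. In the control libraries *Aldh1a1* led the 9 genes with 29704 ± 2172 per kb (SD, n = 3), above 99.9% of all genes with a known length. *Crabp2* (5222 ± 560) and *Cyp26b1* (3660 ± 903) came next, and their ranges touched. *Rdh11* followed with 735 ± 44.1, *Rarg* with 318 ± 11.2, *Rara* with 216 ± 13.9, *Rdh10* with 87.1 ± 3.09, *Aldh1a2* with 70.0 ± 33.4 and *Rarb* with 3.07 ± 0.599. Among neighbours in this order, the control ranges overlapped for *Crabp2* and *Cyp26b1* and for *Rdh10* and *Aldh1a2*, and not for the other 6 pairs. Per kb, *Aldh1a1* exceeded *Aldh1a2* by 256 to 764 times and *Aldh1a3*, the remaining retinal-oxidising member of the family, by 1776 to 3573 times over the 6 libraries.

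**Figure D3:**
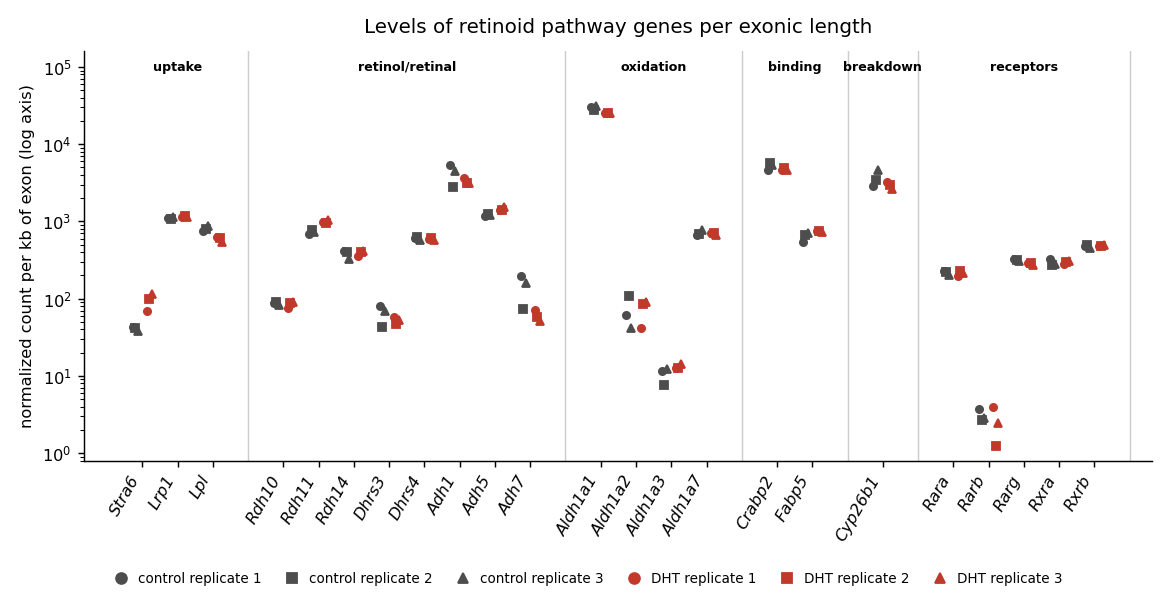
Normalized count per kb of exon (vertical axis, log scale) for retinoid pathway genes grouped by role (horizontal axis), with control libraries in grey, DHT libraries in red and marker shapes for replicate numbers. Of the genes plotted, *Aldh1a1* lies at the top in all 6 libraries and *Rarb* at the bottom.

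*Crabp2*, whose product delivers RA to its receptors, had 6090, 7538 and 7080 normalized counts in control and 6168, 6535 and 6067 in DHT. Control replicate 1 lay among the DHT libraries, and the other control libraries lay above all of them. Its log2 fold change was -0.14 with an SE of 0.072 (limma adjusted p = 0.276). Without control replicate 1 it was -0.22 with an adjusted p of 0.0239 by limma, the only one of 15 alternatives under which it passed, and without control replicate 2 it was -0.07 with an adjusted p of 0.608. *Fabp5*, which carries RA to another nuclear receptor as well as binding fatty acids, had 1920 to 2493 in control and 2566 to 2659 in DHT, with every DHT library higher, and did not pass (log2 fold change 0.22, limma adjusted p = 0.147). *Crabp1* had no row among the deposited genes, which had been filtered on low counts.

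*Cyp26b1*, which encodes an RA-degrading enzyme, had 15317, 18611 and 24834 normalized counts in control and 17398, 15964 and 14007 in DHT. The control libraries were spread widely, from below 2 of the DHT libraries to far above all of them. On the log2 scale the difference was -0.29 with an SE of 0.15 and a 95% interval of -0.63 to 0.05 (limma adjusted p = 0.278), and it passed under no alternative. It was -0.45 without control replicate 1 and -0.10 without control replicate 3 (limma adjusted p = 0.05997 and 0.564). *Aldh1a1* stood 6.81 to 10.6 times above *Cyp26b1* per kb in control and 7.70 to 9.76 times in DHT, and these ranges overlapped. Its close relative *Cyp26a1* had no row among the deposited genes.

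Among the receptors, *Rarg* had 1407, 1338 and 1315 normalized counts in control and 1215, 1239 and 1158 in DHT. Every DHT library lay below every control library, by a narrow gap. The log2 fold change was -0.17 with an SE of 0.049 and a 95% interval of -0.28 to -0.06, and it did not pass (limma adjusted p = 0.0613, exact permutation p = 0.1). Over the 15 alternatives its adjusted p ran from 0.0539 to 0.197. *Rara* had 993, 960 and 875 in control and 846, 1009 and 940 in DHT. The DHT libraries held both its lowest and its highest value, and the log2 fold change was -0.02 with an SE of 0.076 (limma adjusted p = 0.911). Per kb, *Rarg* stood 1.43 to 1.54 times above *Rara* in control and 1.26 to 1.47 times in DHT, and the ranges overlapped.

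*Rarb*, a receptor gene that is itself a classic target of RA, was near the lower limit of the table, with 90 reads in all over the 6 libraries. It had 19.8, 13.9 and 14.8 normalized counts in control and 20.5, 6.55 and 13.1 in DHT. The highest and the lowest value both came from DHT libraries, and a change was not detectable at this depth (log2 fold change -0.37, SE 0.40, 95% interval -1.28 to 0.54, limma adjusted p = 0.624). Of its 5265 bp of exon, 1793 bp overlap exons of *Top2b* on the other strand, and the library kit named in the labels is not described as keeping strand, so reads there cannot be assigned to 1 gene. *Top2b* had 11651 to 11972 normalized counts, far more than *Rarb*, and did not pass (log2 fold change -0.01, limma adjusted p = 0.877).

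The RefSeq window of *Rarb* was the only 1 of the 13 with a direct repeat of receptor half-sites 5 bases apart, the arrangement that RAR and RXR are known to bind. The stretch is shown because it is the motif by which RA receptors act, on chr14:16575507-16575535 (GRCm38.p6, minus strand, 5′ to 3′), with the repeat in capitals. The repeat begins at -53 from the RefSeq start at 16575476, inside the first exon of another annotated *Rarb* transcript.

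*Rarb*: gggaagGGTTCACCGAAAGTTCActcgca

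The half-site AGGTCA was searched on both strands, together with its variants AGTTCA and also GGGTCA, and lastly GGTTCA. Repeats 5 bases apart occurred in 0.0974% of the 32851 windows. Repeats 1 or 2 bases apart occurred in 0.222% and 0.268% of all windows and in none of the 13.

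The other genes of the pathway were taken from lists of 54 genes, of which 29 had a row and were tested. Of these, 3 rose, 3 fell and 23 did not pass, which is 20.7% that passed beside 11.2% of all genes tested. Their median log2 fold change was -0.01, equal to that of all genes at this rounding. *Stra6*, the receptor that takes up retinol from its carrier in blood, had 253, 243 and 225 normalized counts in control and 398, 569 and 666 in DHT. All DHT libraries were higher, with DHT replicate 1 nearest to the control libraries. It rose by a log2 fold change of 1.15 with an SE of 0.16 (limma adjusted p = 0.00263). *Stra6* was already known to be among the genes that the study listed as changed when the lists were drawn up, so its rise is not independent evidence.

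Of the 5 tested genes for retinol uptake, transport and storage, 2 rose and 1 fell, or 60% beside 11.2% of all genes. *Bco2*, which cleaves carotenoids, rose from 17.8 to 20.4 normalized counts in control to 33.3 to 46.8 in DHT (log2 fold change 1.01, SE 0.22, limma adjusted p = 0.0217), on low counts. It no longer passed without control replicate 1 or 2 or without DHT replicate 2 or 3 (limma adjusted p up to 0.0987). Exons of *Bco2* and *Adh7* overlap those of antisense genes, from which reads cannot be told apart without strand. *Lpl*, the lipase that releases fatty acids and retinol esters from lipoproteins, had 7991 to 9027 in control and fell to 5603 to 6650 in DHT (log2 fold change -0.46, SE 0.067, limma adjusted p = 0.00296). *Lrp1*, a receptor that takes up lipoprotein remnants, did not pass (log2 fold change 0.06, limma adjusted p = 0.377).

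Among 9 tested genes for the interconversion of retinol and retinal, 1 rose and 1 fell, or 22.2% beside 11.2% of all genes. *Adh5*, the most widely expressed alcohol dehydrogenase, which mainly handles formaldehyde, rose (log2 fold change 0.24, SE 0.050, limma adjusted p = 0.0172), though it did not pass without the intensity trend (0.0968). *Adh7*, a dehydrogenase active on retinol, had 734, 279 and 606 normalized counts in control and 270, 216 and 197 in DHT. Control replicate 2 lay close above DHT replicate 1, and the other control libraries lay far higher. *Adh7* fell by 1.14 on the log2 scale (SE 0.31, limma adjusted p = 0.0452), but of the fits with 1 library left out it passed only without control replicate 2 (limma adjusted p = 0.000993, up to 0.158 in the others), and it did not pass without the intensity trend (0.165). *Dhrs3*, which returns retinal to retinol, did not pass (log2 fold change -0.25, limma adjusted p = 0.523).

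The RXR partners *Rxra* and *Rxrb* did not pass, with log2 fold changes of -0.01 (95% interval -0.16 to 0.14) and 0.03 (-0.08 to 0.14) and limma adjusted p = 0.947 and 0.742. *Rxrg* was not analysed here. Of the 7 tested receptor partners and cofactors, none rose and 1 fell, or 14.3% beside 11.2%. *Nrip1*, a corepressor of nuclear receptors, fell by 0.21 on the log2 scale (SE 0.054, limma adjusted p = 0.0370), and of the fits with 1 library left out it passed only without control replicate 3 (limma adjusted p up to 0.118). *Ncor1* and the coactivators *Ncoa1*, *Ncoa2* and *Ncoa3* did not pass, with log2 fold changes between -0.02 and 0.03.

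Genes known to respond to RA were counted as a separate list that includes *Rarb*, *Cyp26b1* and *Crabp2*. Of 19 such genes 11 were tested: *Stra6* rose, *Nrip1* fell and 9 did not pass, so 18.2% passed beside 11.2% of all genes, with a median log2 fold change of -0.14. *Hoxb4*, *Hoxb5*, *Tgm2*, *Rarres2* and *Zfp703* were among those that did not pass, with log2 fold changes of -0.10, -0.29, -0.02, 0.39 and 0.22. *Aldh1a3*, which is not in this list, did not pass either (log2 fold change 0.34, limma adjusted p = 0.3597). It had 35.3 to 56.5 normalized counts in control and 57.7 to 66.4 in DHT, with every DHT library higher.

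**Figure D4:**
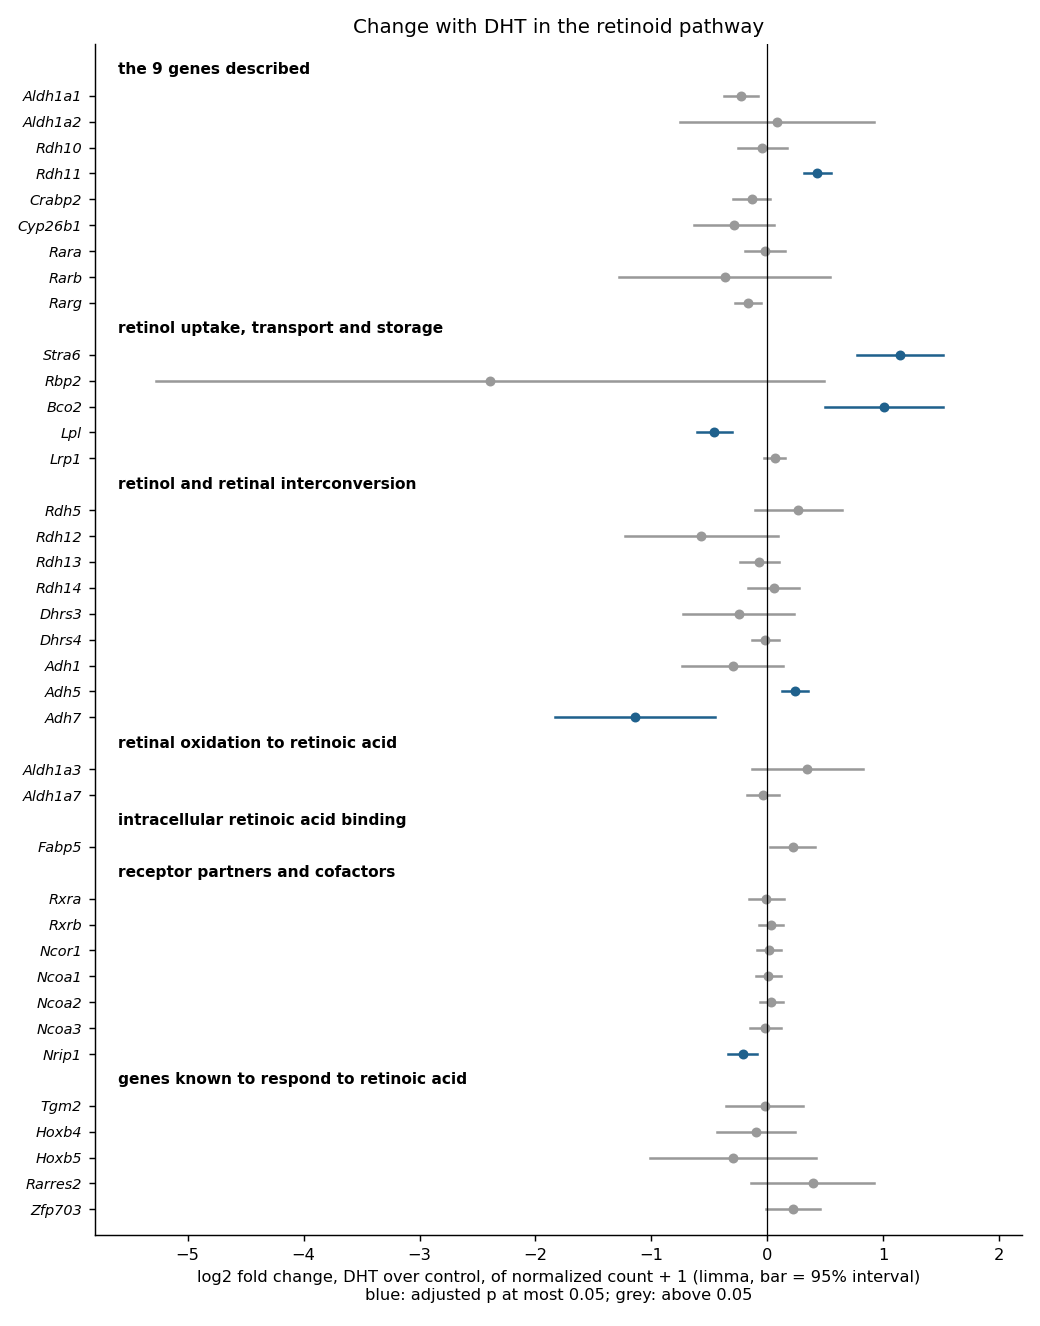
Log2 fold change of DHT over control on the log2(normalized count + 1) scale (horizontal axis) with its 95% interval from limma, for the 9 RA genes and the 29 other tested genes of the pathway (vertical axis, grouped by role). Blue marks an adjusted p of at most 0.05: *Rdh11*, *Stra6*, *Bco2* and *Adh5* lie above 0 and *Lpl*, *Adh7* and *Nrip1* below it.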

How the data were processed

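Total RNA of 6 libraries was sequenced as paired ends. Per the labels' processing notes the reads were trimmed with Trimmomatic 0.36, aligned with STAR 2.5.2b to GRCm38 and counted with featureCounts of Subread 1.5.2. As deposited, each value is a signal, namely a normalized count: the authors divided the reads on a gene by the library's DESeq2 size factor. Division by the step of each library gave whole reads (within 1e-06) for 100% of values. The table also holds the authors' fold changes and p-values, which were not used, and a second table with a subset of its genes was not used.

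Values were analysed as log2(value + 1), a scale that understates changes of low genes, with limma 3.58.1 in R 4.3.3 (intensity trend). The 16292 genes whose mean reached 10 were tested, with Benjamini-Hochberg adjustment over all of them. Alternatives were pseudocounts of 0.5 and 8, no filter, a mean of at least 50, TMM scaling, no trend, a replicate block, edgeR 4.0.16 and DESeq2 1.42.0 on the recovered reads, and each library left out. Single genes were also tested by exact two-sided permutation of the difference in means, which cannot go below p = 0.1. P-values measure the spread between pooled cultures. The tests were checked on simulated counts. The check of recovered reads used for the deposited columns did not accept 3 of the 6 libraries, although every value divided to a whole number, so edgeR and DESeq2 serve only as alternatives.

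Positions, exon overlaps and exonic lengths came from GENCODE M21 (GRCm38), which matched 16259 of 16300 IDs, and sequences from RefSeq windows (GRCm38.p6), which matched 7 of the 9 genes. The genes, gene lists and markers were chosen with earlier results of these data known. All 9 genes are described. Of the other pathway lists, genes that passed were named, together with *Rxra*, *Rxrb*, *Rxrg*, *Stra6*, *Dhrs3*, *Crabp1*, *Cyp26a1* and *Aldh1a3*, and 3 genes by likeness to the RA gene with the smallest adjusted p. Of the lists, 2 genes are not reported here and were left out of every list count. Further genes were named after their values were seen, and the enterocyte list was also added then.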

Additional observations from a re-analysis of the deposited data

How the results depend on the processing

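*Rdh11* kept its direction and passed under all 15 alternatives, with log2 fold changes of 0.39 to 0.48 when a library was left out. The count of RA genes that passed, 1, was 2 with a pseudocount of 0.5, TMM scaling, edgeR and DESeq2, through *Aldh1a1*, and ran from 1 to 2 when a library was left out. The 1823 genes that passed overall became 804 without the intensity trend and 990 with the replicate block, and 931 to 2094 when a library was left out. Among the fits with 1 library left out the lowest counts were 970 without DHT replicate 2 and 931 without DHT replicate 3. The 213 genes past both thresholds became 131 at a mean of at least 50 and ran from 138 to 286 when a library was left out, lowest without DHT replicate 3. Of the other pathway genes, 6 passed, 3 without the trend (*Bco2*, *Lpl* and *Stra6*), 3 with the block (*Adh7*, *Lpl* and *Stra6*, while *Adh5* had a limma adjusted p of 0.0513), and 3 to 7 when a library was left out. They were 3 without control replicate 1, DHT replicate 2 or DHT replicate 3, and *Stra6* and *Lpl* passed under every alternative. Among the 9 RA genes, signs turned for 4 that passed in no fit: *Aldh1a2* (-0.24 to 0.44 over the left-out libraries), *Rdh10* (-0.10 to 0.045, above 0 without DHT replicate 1), *Rara* (-0.078 to 0.049, above 0 without control replicate 1 or DHT replicate 1) and *Rarb* (-0.72 to 0.034, above 0 without DHT replicate 2). The cause was not tested. Replicate numbers are shared between the groups, but the deviations of same-numbered libraries correlated at 0.00583, 0.0666 and -0.238, so the numbers were not taken as pairs. With the replicate block *Rdh11* had a log2 fold change of 0.43 (limma adjusted p = 0.00822). *Cyp26b1* ran from -0.45 to -0.10 and *Crabp2* from -0.22 to -0.07 when a library was left out. *Rarb* has no value at a mean of at least 50 and no adjusted p from DESeq2. *Rarb* rests on 90 reads over the 6 libraries.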

Other observations

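*Rbp2*, the retinol-binding protein of the intestinal lining, had 12.9, 17.7 and 24.1 normalized counts in the control libraries and 44.0 in DHT replicate 1, and was at 0 in DHT replicates 2 and 3. Its log2 fold change was -2.39 with an SE of 1.27 (limma adjusted p = 0.283), and its adjusted p ran from 0.00177 to 0.915 over the alternatives. Of 10 enterocyte markers, a list added after the values were seen, 7 had a row. Their summed normalized counts were 379, 440 and 501 in control and 494, 148 and 176 in DHT. *Sis*, the sucrase of the gut lining, had 40.6 to 69.5 in control and 69.5, 0 and 1.09 in DHT, and *Guca2b*, a gut peptide, had 11.9 to 28.7 in control and 29.4, 0 and 0 in DHT. DHT replicates 2 and 3 were thus the low libraries for *Rbp2*, *Sis* and *Guca2b*, and none of the 7 markers passed. Without DHT replicate 1, *Sis*, *Guca2b*, *Fabp2*, *Lct* and *Apoa4* passed (limma adjusted p = 0.000630 to 0.0265), as did *Rbp2* (0.00177). Over all genes tested, 1372 passed in that fit. It leaves out the DHT library in which these genes were highest, so these p-values are no independent support for a difference. *Muc2* and *Vil1* of the same list did not pass with any library left out (limma adjusted p at least 0.393 and 0.113). *Muc2* had 50.9, 53.5 and 33.7 normalized counts in DHT and 46.3 to 72.5 in control. *Vil1* had 63.6, 24.0 and 52.2 in DHT and 63.3 to 80.6 in control.

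Oocyte markers differed between libraries without following the groups. The 6 with a row summed to 307 to 791 normalized counts in the control libraries and to 528, 43.6 and 568 in the DHT libraries, with *Zp3*, an egg coat protein, at 0 in DHT replicate 2. *Rdh11* passed without DHT replicate 2 as well (log2 fold change 0.45, limma adjusted p = 0.00478).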
